A study of Mus musculus with 6 samples.

Results

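The 10 genes described here handle pyrophosphate, phosphate and the mineral that forms when phosphate meets calcium outside cells: Ank, Enpp1, Alpl, Abcc6, Nt5e, Slc20a1, Slc20a2, Phospho1, Spp1 and Mgp. They were chosen by their names from known roles, out of 29595 genes in the deposited table, after Ank had been seen among the genes with the smallest p of those higher in the Hnf3a group. The choice was therefore made with this very contrast in view, so every difference between the groups given below for the 10 genes is a description, and its p-value is no independent test. RNA was sequenced from TKPTS cells, a cultured line from the proximal tubule of the mouse kidney. In the Hnf3a group, 3 libraries came from cells transfected with the plasmid pcDNA3.1-Hnf3a-Flag, which carries HNF3α (hepatocyte nuclear factor 3 alpha, a forkhead transcription factor, gene symbol Foxa1) with a Flag tag. In the pcDNA group, 3 libraries came from cells given pcDNA3.1-Flag, the same plasmid without the insert, and all cells were harvested 24 h after transfection. Transfection was transient, the share of cells that took up plasmid is not given in the sources used here, and nothing says that the 3 libraries of a group were separate cultures, so p-values measure only the spread between these libraries.

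Pyrophosphate outside cells blocks the growth of calcium phosphate crystals, and phosphate feeds it. ATP that leaves the cell through Ank or through transport that depends on Abcc6 is cut by the enzyme Enpp1 into AMP and pyrophosphate, Alpl splits pyrophosphate into phosphate, and Nt5e splits the AMP into adenosine and phosphate. In the kidney this balance, with secreted proteins such as osteopontin (Spp1), is known for keeping tubular fluid free of crystals.

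Foxa1, the transfected gene, stood at 334, 296 and 284 FPKM (fragments per kilobase of transcript, scaled to library size, a level per length) in Hnf3a replicates 1, 2 and 3 and at 9.49, 9.54 and 9.96 FPKM in pcDNA replicates 1, 2 and 3. Its row does not separate RNA of the plasmid from RNA of the cell's own gene. The libraries held 60473818 to 71154667 estimated counts each. In each library 1148 to 1203 genes had 4 counts, against 661 to 694 with 3 and 368 to 400 with 5. About 4 counts were therefore taken to stand for 1 sequenced fragment, which no source used here states. On this reading, genes at or under 12 counts, about 3 fragments, were treated as at the detection floor, which covers counting error only. Hnf3a replicates 2 and 3 stood apart from the other 4 libraries in connective tissue genes. Col1a1 had 33, 2694 and 3099 counts in the Hnf3a libraries, against 0, 16 and 5 in the pcDNA libraries, and the summed level of 8 fibroblast markers was 0.228, 7.69 and 9.50 FPKM against 0.101 to 0.169. All 8 macrophage markers were over the floor in Hnf3a replicates 2 and 3, against 2 to 4 in each of the others. Their summed level differed much less, at 13.02, 16.92 and 18.77 FPKM in the Hnf3a libraries against 12.45 to 14.27 FPKM. Most of it came from Cd68, which had 993 to 1178 counts in the 6 libraries. Smooth muscle markers over the floor numbered 3, 5 and 5 of 5 in the Hnf3a libraries, against 1, 2 and 1 in the pcDNA libraries. The summed level of these markers was 4.07, 4.59 and 4.08 FPKM against 2.83 to 3.37 FPKM, so there Hnf3a replicate 1 also lay above the pcDNA libraries. Of 12 proximal tubule markers, 10 were in the table. Their summed level was 15.5 to 16.0 FPKM in the Hnf3a group and 13.3 to 14.3 FPKM in the pcDNA group, most of it from Mme, while Lrp2 and Cubn, which encode the uptake receptors of this segment, had 17 to 58 counts and the glucose carrier gene Slc5a2 was under the floor in all 6 libraries. Each group difference below is given with all libraries first, and where it matters without Hnf3a replicates 2 and 3.

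The sequences upstream of the start sites of Ank, Alpl and Spp1 are shown because these members passed the threshold under most ways of fitting, and because the transfected factor binds DNA. Each is the 250 bases before the RefSeq start site of the first listed transcript in the GRCm38.p6 assembly, read along the gene's own strand. Capitals mark matches to a forkhead word on either strand. The windows lie at chr15:27466427-27466676 on the plus strand for Ank, chr4:137796385-137796634 on the minus strand for Alpl, and chr5:104434861-104435110 on the plus strand for Spp1.
Ank upstream: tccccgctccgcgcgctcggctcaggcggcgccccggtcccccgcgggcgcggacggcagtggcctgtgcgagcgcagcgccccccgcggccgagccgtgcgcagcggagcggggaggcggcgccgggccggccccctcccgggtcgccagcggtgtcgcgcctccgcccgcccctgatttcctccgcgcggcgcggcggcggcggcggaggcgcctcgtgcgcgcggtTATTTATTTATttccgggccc
Alpl upstream: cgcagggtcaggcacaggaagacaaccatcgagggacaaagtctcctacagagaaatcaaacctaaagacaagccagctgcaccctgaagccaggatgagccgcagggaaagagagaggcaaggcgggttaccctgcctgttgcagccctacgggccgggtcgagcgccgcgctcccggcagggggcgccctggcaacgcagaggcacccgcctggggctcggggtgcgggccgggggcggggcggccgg
Spp1 upstream: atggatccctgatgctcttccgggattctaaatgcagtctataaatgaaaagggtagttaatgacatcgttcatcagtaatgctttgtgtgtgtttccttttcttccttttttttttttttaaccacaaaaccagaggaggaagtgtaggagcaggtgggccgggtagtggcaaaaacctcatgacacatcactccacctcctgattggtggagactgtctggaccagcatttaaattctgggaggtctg

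Windows from 250 bases before to 50 bases after each RefSeq start were searched on both strands for 8 spellings of the forkhead core motif, namely TATTTAC or TATTTAT or TATTTGC or TATTTGT or TGTTTAC or TGTTTAT or TGTTTGC or TGTTTGT. The Ank window held TATTTAT at 2 places that overlap, first bases at -21 and -17 from the start site, in a stretch that was otherwise rich in G and C (78.0% of the window, against a median of 52.7% over all windows). The first Alpl, Nt5e and Spp1 windows held none of the 8 words. Of the 10 members, 7 had a window, 10 windows in all, and 3 windows had a match: those of Ank, the first of Slc20a1 (TATTTAT on the minus strand at base 1) and the second of Spp1 (TATTTGT on the minus strand at base 43). Abcc6, Slc20a2 and Mgp had no entry. Across all 32851 windows of this length, 27.5% held at least 1 of the 8 words and 3.65% held TGTTTAC. The word TATTTAT and its reverse complement ATAAATA also share letters with the TATA box, so a match is a run of letters in this window and not a measured site. The RefSeq start of Nt5e lies 412 bases inside the start that the deposited table gives for the gene.

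Ank (ENSMUSG00000022265; chromosome 15, 27466677 to 27594909, plus strand, GRCm38, 12 exons) encodes the multipass membrane protein that raises pyrophosphate outside the cell. Its level was 22.4, 21.5 and 21.6 FPKM in Hnf3a replicates 1, 2 and 3 and 15.5, 16.1 and 17.1 FPKM in pcDNA replicates 1, 2 and 3. Every Hnf3a library was above every pcDNA library, with a wide gap between the lowest of the first and the highest of the second. The mean was 21.8 ± 0.502 FPKM (SD, n = 3) against 16.3 ± 0.805 FPKM (SD, n = 3), or 1.33-fold higher in the Hnf3a group (95% interval 1.25 to 1.42). The log2 fold change was 0.41 (SE 0.043) and the edgeR adjusted p was 6.37e-05. Without Hnf3a replicates 2 and 3 the log2 fold change was 0.46 with an edgeR adjusted p of 0.0047. Otulin overlaps the span of Ank on the opposite strand and had 2076 to 2319 counts against 3792 to 6142 for Ank. Whether counting used the strand is not given in the sources used here, so a part of the Ank count could belong to Otulin, whose own counts overlapped between the groups.

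Enpp1 (ENSMUSG00000037370; chromosome 10, 24637914 to 24712159, minus strand, 25 exons) encodes the enzyme that makes pyrophosphate from ATP. It was close to the lower end of what these libraries could measure, with 93, 151 and 82 counts in the Hnf3a libraries, against 135, 104 and 86 in the pcDNA libraries. The groups overlapped fully. Their means were 0.139 ± 0.0396 and 0.148 ± 0.0406 FPKM (SD, n = 3 each), and the log2 fold change was -0.10 with a 95% interval of -0.67 to 0.46 (edgeR adjusted p 0.93). The interval reaches from 0.63-fold to 1.38-fold, so no difference was detectable at this depth.

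Alpl (ENSMUSG00000028766; chromosome 4, 137741733 to 137796384, minus strand, 12 exons) encodes tissue-nonspecific alkaline phosphatase, the enzyme that splits pyrophosphate. Its level was 0.617, 0.732 and 0.556 FPKM in the Hnf3a libraries and 1.44, 1.22 and 1.49 FPKM in the pcDNA libraries. The counts behind these levels were 181, 234 and 165 against 393, 361 and 440. The row lists 3 of the 8 Alpl transcripts of the GENCODE vM21 annotation and 3 of the 4 coding ones, so it does not cover the whole gene. The highest Hnf3a library was well below the lowest pcDNA library. The mean of 0.635 ± 0.0894 FPKM (SD, n = 3) in the Hnf3a group was 2.19-fold lower than the mean of 1.38 ± 0.146 FPKM (SD, n = 3) in the pcDNA group by the fit. The log2 fold change was -1.13 (SE 0.147), with a 95% interval of -1.45 to -0.82 and an edgeR adjusted p of 0.00054. It was -1.17 without Hnf3a replicates 2 and 3 (edgeR adjusted p 0.018). In a bulk sample, fewer cells that express a gene and less of its RNA per cell cannot be told apart. Alpl also marks bone-forming cells, so their other genes were read beside it. Sp7, Bglap, Ibsp and Dmp1 were at or under the floor in all 6 libraries, and of 5 osteoblast markers only Runx2 was above it, at 731 to 961 counts with overlapping groups.

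**Figure D1:**
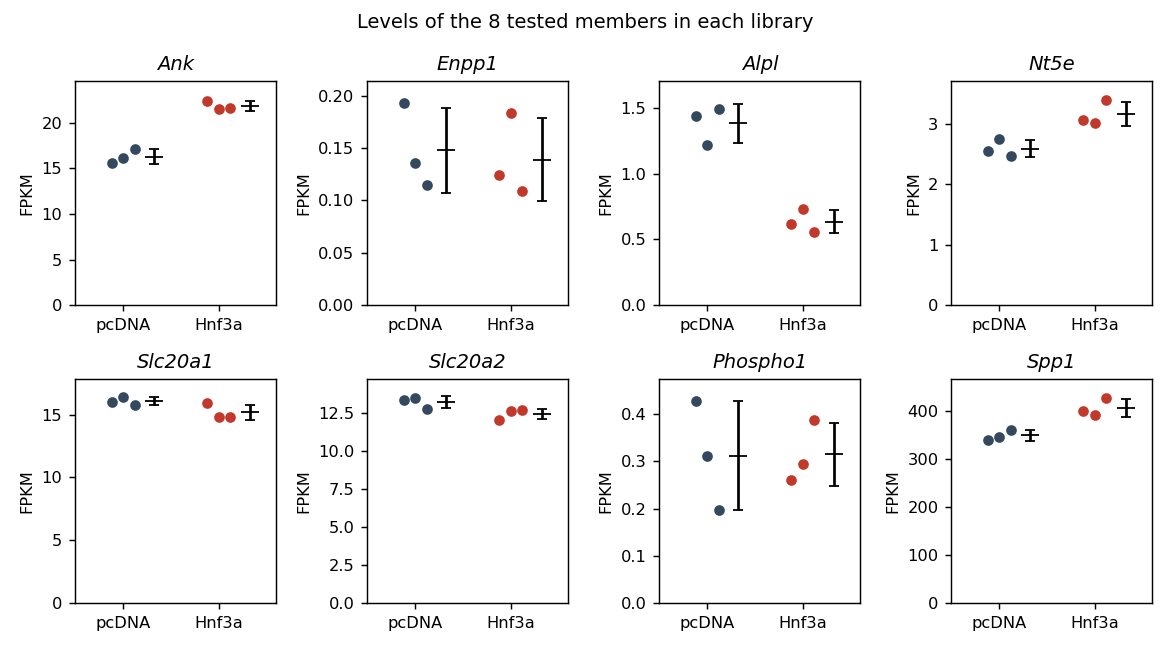
Level of each of the 8 tested members in every library, in FPKM on a linear axis that starts at 0; points are libraries (blue pcDNA, red Hnf3a), horizontal ticks are group means and bars are 1 SD (n = 3). Ank, Nt5e and Spp1 lie higher and Alpl lower in the Hnf3a group without overlap, while Enpp1 and Phospho1 scatter over ranges that overlap between the groups.

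Abcc6 (ENSMUSG00000030834; chromosome 7, 45967555 to 45980006, minus strand) encodes the liver and kidney transporter on which release of ATP for pyrophosphate depends. It had 0, 0 and 2 counts in the Hnf3a libraries, against 0, 3 and 4 in the pcDNA libraries. All 6 values were under the floor of 12 counts, so it was not tested and no fold is given. The row lists 2 of the 5 Abcc6 transcripts of GENCODE vM21 and 1 of the 2 coding ones, so these counts say nothing about the other coding transcript.

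Nt5e (ENSMUSG00000032420; chromosome 9, 88327197 to 88372092, plus strand, 9 exons) encodes CD73, which turns the AMP left by Enpp1 into adenosine and phosphate. Its level was 3.07, 3.02 and 3.39 FPKM in the Hnf3a libraries and 2.56, 2.75 and 2.47 FPKM in the pcDNA libraries. The groups did not overlap, but the gap between Hnf3a replicate 2 and pcDNA replicate 2 was no wider than the range within either group. The means were 3.16 ± 0.200 and 2.59 ± 0.144 FPKM (SD, n = 3 each), 1.21-fold higher in the Hnf3a group (95% interval 1.10 to 1.33). The log2 fold change was 0.28 (SE 0.064) and the edgeR adjusted p was 0.033. Without Hnf3a replicates 2 and 3 the log2 fold change was 0.24 (edgeR adjusted p 0.21). Of 17 other ways of fitting, 7 kept Nt5e under the 0.05 threshold. The edgeR adjusted p was 0.072 or 0.11 when Hnf3a replicate 2 or 3 was left out, and 0.15, 0.062 and 0.14 when pcDNA replicate 1, 2 or 3 was left out, and the log2 fold change stayed between 0.21 and 0.32 in all 17.

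The sodium-dependent phosphate importers Slc20a1 (PiT-1; ENSMUSG00000027397; chromosome 2, 129198764 to 129211616, plus strand, 11 exons) and Slc20a2 (PiT-2; ENSMUSG00000037656; chromosome 8, 22476788 to 22569612, plus strand, 11 exons) carry phosphate into most cell types. Slc20a1 stood at 15.9, 14.8 and 14.8 FPKM in the Hnf3a libraries and at 16.0, 16.5 and 15.8 FPKM in the pcDNA libraries. Slc20a2 stood at 12.1, 12.6 and 12.7 FPKM in the Hnf3a libraries and at 13.4, 13.5 and 12.8 FPKM in the pcDNA libraries. Both lay a little lower in the Hnf3a group, Slc20a1 with overlap through Hnf3a replicate 1 and Slc20a2 without overlap. The log2 fold change was -0.09 for both, with 95% intervals of -0.18 to -0.01 for Slc20a1 and -0.17 to -0.01 for Slc20a2, and neither was under the threshold over all genes (edgeR adjusted p 0.32 and 0.27). Without Hnf3a replicates 2 and 3, the log2 fold change of Slc20a1 was -0.02 and that of Slc20a2 was -0.13. The level of Slc20a1 was 1.17 to 1.32 times that of Slc20a2 in the 6 libraries, so the order of these importers was the same in each. Other annotated genes overlap their spans, 9830144P21Rik and Gm4430 with 81 to 286 counts for Slc20a1 and Smim19 and Gm17491 with 327 to 588 counts for Slc20a2.

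Phospho1 (ENSMUSG00000050860; chromosome 11, 95824499 to 95832140, plus strand, 3 exons) encodes a phosphatase that releases phosphate inside matrix vesicles of mineralizing cells. It had 39, 49 and 59 counts in the Hnf3a libraries, against 60, 47 and 30 in the pcDNA libraries. The groups overlapped, and the log2 fold change of 0.01 had a 95% interval of -0.74 to 0.75 (edgeR adjusted p 0.996), which is too wide to show a small difference. Zfp652 overlaps its span on the same strand and had 4046 to 5090 counts, so even this low count is uncertain. The row lists 2 of the 3 Phospho1 transcripts of GENCODE vM21, all 3 of them coding.

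Spp1 (ENSMUSG00000029304; chromosome 5, 104435118 to 104441050, plus strand, 6 exons) encodes osteopontin, a secreted acidic protein that coats calcium crystals and also binds integrins. Its level was 400.0, 390.4 and 427 FPKM in the Hnf3a libraries and 339, 346 and 361 FPKM in the pcDNA libraries. It was by far the most abundant of the 10 genes, at rank 72 of 29595 by mean FPKM, and every Hnf3a library was above every pcDNA library. The means were 406 ± 19.1 and 348 ± 11.2 FPKM (SD, n = 3 each), 1.16-fold higher in the Hnf3a group (95% interval 1.10 to 1.22). The log2 fold change was 0.21 (SE 0.036) and the edgeR adjusted p was 0.0042. It was 0.20 in the fit of 1 Hnf3a library against 3 that left out Hnf3a replicates 2 and 3 (edgeR adjusted p 0.021). The part of the macrophage and fibroblast marker RNA of these replicates in the Spp1 difference was not tested. Leaving out pcDNA replicate 1 gave an edgeR adjusted p of 0.054, and leaving out pcDNA replicate 2 gave 0.056. The limma adjusted p was also over 0.05, at 0.079, 0.088 and 0.073 with pseudocounts of 0.1, 1 and 0.01. Gm42793, which overlaps Spp1 on the same strand, had 94 to 164 counts against 37721 to 51764 for Spp1. The row lists 6 of the 7 Spp1 transcripts of GENCODE vM21, all 7 of them coding.

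Mgp (ENSMUSG00000030218; chromosome 6, 136872435 to 136875823, minus strand) encodes matrix Gla protein, an inhibitor of vascular calcification that needs vitamin K. Its row held 0, 0 and 2 counts in the Hnf3a libraries and 0 in each pcDNA library. The row lists 1 of the 2 Mgp transcripts of GENCODE vM21 and not the coding one, so these counts say nothing about the coding transcript.

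Of the 10 members, 8 were tested, Ank, Nt5e and Spp1 were higher and Alpl was lower past the threshold, and Abcc6 and Mgp were below the filter on low counts. The same threshold called 3.17% of all 17824 genes tested, 1.04% as higher in the Hnf3a group and 2.13% as lower. Groups did not overlap for 5 of the 8 members, against 18.9% of all genes tested. Since the members were selected on this contrast, nothing is read from these counts. Without Hnf3a replicates 2 and 3, 3 members were past the threshold, and 2 were when pcDNA replicate 1 or pcDNA replicate 2 was left out. The median log2 fold change over the 8 members was -0.04, with 3 of the 4 others below 0 and 1 above, and over all genes tested it was 0.0008.

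**Figure D2:**
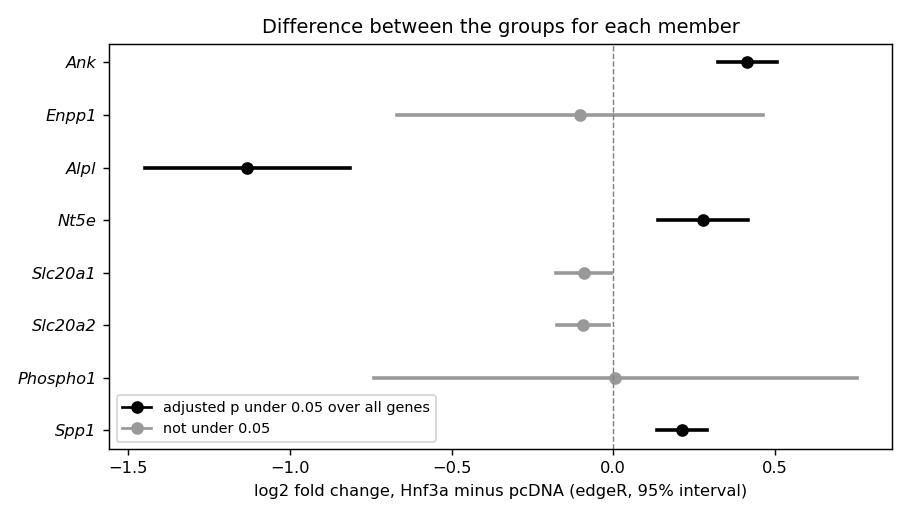
Log2 fold change of Hnf3a minus pcDNA for the 8 tested members from the edgeR fit; points are estimates, bars are 95% intervals, and black marks an adjusted p under 0.05 over all genes. Alpl lies at -1.13 and Ank at 0.41, while the intervals of Enpp1 and Phospho1 span 0 widely.

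Read per length, the order of the levels in the pcDNA group was Spp1, Ank with Slc20a1, Slc20a2, Nt5e, Alpl, Phospho1 and Enpp1. Ank and Slc20a1 did not differ beyond their spread in the pcDNA libraries, where they lay at 15.5 to 17.1 and 15.8 to 16.5 FPKM, whereas in the Hnf3a libraries Ank lay above Slc20a1 throughout. The exporter Ank and the hydrolase Alpl moved apart. The ratio of Ank to Alpl FPKM was 36.3, 29.3 and 38.8 in the Hnf3a libraries, against 10.8, 13.3 and 11.5 in the pcDNA libraries. Every Hnf3a ratio was above every pcDNA ratio, which follows from the values that the choice of members already used. The ratio of Spp1 to Ank was 17.9, 18.2 and 19.8 in the Hnf3a libraries, against 21.8, 21.4 and 21.1 in the pcDNA libraries, and so was lower in the Hnf3a group although both genes were higher.

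Among the other ways of fitting, Ank and Alpl were past the threshold in 17 of 17 and Spp1 in 12 of 17. The log2 fold change ranged from 0.38 to 0.46 for Ank, from -1.24 to -0.54 for Alpl and from 0.18 to 0.24 for Spp1. The smallest value for Alpl came from limma on log2(FPKM + 1), a scale that understates changes of genes with low levels.

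**Figure D3:**
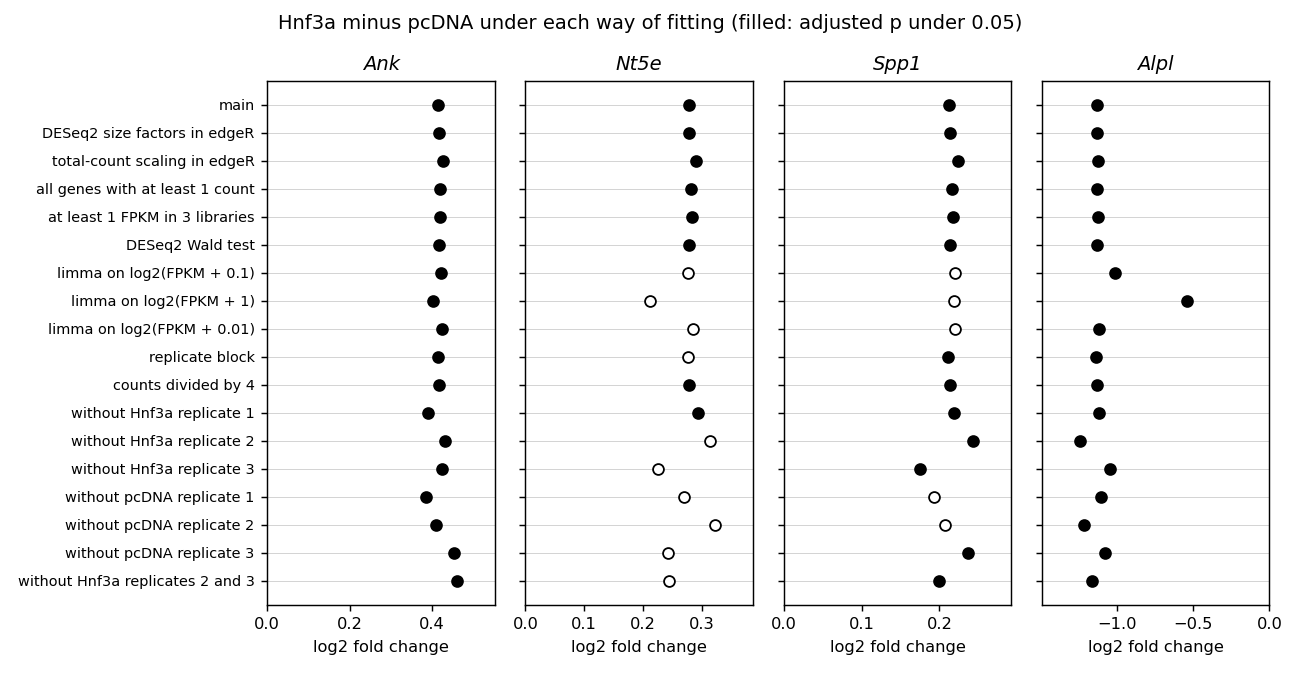
Log2 fold change of Ank, Nt5e, Spp1 and Alpl under the main fit and each of 17 other ways of fitting; filled points have an adjusted p under 0.05 and open points do not. Ank and Alpl are filled in all rows, Spp1 in 12 of the 17 others and Nt5e in 7.

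The rest of the pathway was read from 5 lists of other genes, 85 in all, of which 78 were in the table and 58 were tested. Of these, 3 were higher and 4 were lower in the Hnf3a group past the threshold, 12.1% of those tested against 3.17% of all genes tested, and the median log2 fold change was 0.01 against 0.0008. Without Hnf3a replicates 2 and 3, only Enpp4 and Adora2b, 2 genes, passed the threshold. DESeq2 called 10 of the genes and limma 2. Slc34a1, Mepe, Dspp, Msx2, Sost, Umod and Ucma were not analysed here. The lists were written with earlier results of these data known, and the counts are descriptions. Each list had 7 to 21 tested genes, so its count below is too small to set against the share of 3.17% or to show a direction.

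Of 24 nucleotide and pyrophosphate enzymes, receptors and carriers, 21 were tested and 2 passed the threshold, both lower in the Hnf3a group (median log2 fold change 0.01). Enpp4, a relative of Enpp1 that cleaves dinucleotides at the cell surface, was at 20.1, 18.7 and 18.3 FPKM in the Hnf3a libraries and 23.6, 23.7 and 23.9 FPKM in the pcDNA libraries. Its log2 fold change was -0.33 (SE 0.040, edgeR adjusted p 0.00031). Adora2b, a receptor for the adenosine that Nt5e makes, was at 3.80, 4.39 and 4.53 FPKM against 7.44, 6.37 and 7.51 FPKM, and fell by 0.75 on the log2 scale (SE 0.099, edgeR adjusted p 0.00061). Both genes were past the threshold in 17 of 17 other fits, and their groups did not overlap. The 2 most abundant genes of the list, Ppa1 and Entpd5, did not pass the threshold. Ppa1, the cytosolic pyrophosphatase, was at 70.7 ± 2.03 and 73.9 ± 1.31 FPKM (SD, n = 3 each; log2 fold change -0.07). Entpd5, a nucleoside diphosphatase of the endoplasmic reticulum, was at 29.1 ± 0.322 and 28.7 ± 0.412 FPKM (SD, n = 3 each; log2 fold change 0.01, with a sign that turned in 2 of 17 fits).

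Of 20 phosphate transport and hormone genes, 19 were in the table and 12 were tested, 2 were higher and 1 was lower (median log2 fold change -0.03). Fgfr1, a receptor for the phosphate hormone FGF23 when klotho is present, was at 0.458, 0.474 and 0.404 FPKM in the Hnf3a libraries and 0.261, 0.180 and 0.232 FPKM in the pcDNA libraries. That is 1.98-fold higher in the Hnf3a group (log2 fold change 0.98, SE 0.160, edgeR adjusted p 0.0033), while Kl, which encodes klotho, and Fgf23 did not pass the filter on low counts. Xpr1, the phosphate exporter, was at 1.41 ± 0.0540 and 1.16 ± 0.0464 FPKM (SD, n = 3 each), with a log2 fold change of 0.27 (SE 0.059, edgeR adjusted p 0.025). Slc34a2, a sodium-phosphate cotransporter best known from lung and gut, was at 2.23 ± 0.239 and 3.00 ± 0.172 FPKM (SD, n = 3 each), with a log2 fold change of -0.43 (SE 0.090, edgeR adjusted p 0.017). Without Hnf3a replicates 2 and 3 the edgeR adjusted p was 0.064 for Fgfr1, 0.23 for Xpr1 and 0.080 for Slc34a2, and the log2 fold changes were 1.03, 0.23 and -0.47. Fgfr1 was past the threshold in 12 of 16 other fits, Xpr1 in 7 of 17 and Slc34a2 in 9 of 17, and none of them was called by limma. Leaving out 1 library at a time took the edgeR adjusted p of Xpr1 over 0.05 in all cases but Hnf3a replicate 1 (0.074 to 0.11), and that of Slc34a2 when Hnf3a replicate 2 (0.11) or pcDNA replicate 1, 2 or 3 (0.062, 0.072 and 0.10) was left out. Slc25a3, the mitochondrial phosphate carrier, and Slc9a3r1, the scaffold that holds phosphate transporters at the brush border, were the most abundant of this list. Their means were 77.5 and 75.8 FPKM for Slc25a3 and 77.5 and 77.1 FPKM for Slc9a3r1 in the Hnf3a and pcDNA groups, with log2 fold changes of 0.02 and -0.0008, and the sign for Slc9a3r1 turned in 12 of 17 fits.

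Of 21 bone matrix and ossification genes, 17 were in the table, 10 were tested and 1 passed the threshold, higher in the Hnf3a group (median log2 fold change -0.02). Sparc, which encodes the collagen-binding and calcium-binding matrix protein osteonectin, was at 13.9, 15.2 and 15.9 FPKM in the Hnf3a libraries and 11.7, 12.4 and 12.9 FPKM in the pcDNA libraries. Its log2 fold change was 0.27 (SE 0.053, edgeR adjusted p 0.011). Sparc was past the threshold in 10 of 17 other fits. The edgeR adjusted p was 0.081, 0.083 or 0.070 when Hnf3a replicate 2, pcDNA replicate 1 or pcDNA replicate 2 was left out and 0.042 when Hnf3a replicate 3 was, and limma gave 0.084 to 0.097. Without both Hnf3a replicates 2 and 3 the log2 fold change was 0.18 (edgeR adjusted p 0.28), and the part of their fibroblast and macrophage marker RNA in the Sparc difference was not tested. Col1a1 and Col1a2, chains of type I collagen, were not under the threshold in the reported fit (edgeR adjusted p 0.27 for both), but DESeq2 called 3 genes of this list, Sparc and both of these (DESeq2 adjusted p 0.00096 for Col1a1 and 0.00092 for Col1a2), and limma called 0. Leaving out Hnf3a replicate 1 gave edgeR adjusted p values of 0.0031 (Col1a1) and 0.0021 (Col1a2). Bmp4, a secreted signal that drives bone formation, was at 28.1 FPKM in both groups (log2 fold change -0.01), with a sign that turned in 6 of 17 fits.

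Of 10 inhibitors of mineralization and vitamin K cycle genes, 8 were in the table, 7 were tested and 1 passed the threshold, lower in the Hnf3a group (median log2 fold change 0.12). Ahsg, which encodes the circulating mineral-binding protein fetuin-A, had 74, 40 and 24 counts in the Hnf3a libraries, against 131, 124 and 100 in the pcDNA libraries. Its log2 fold change was -1.44 (SE 0.352, edgeR adjusted p 0.044). The adjusted p was over 0.05 in 9 of 16 other fits, and without Hnf3a replicates 2 and 3 the log2 fold change was -0.71 (edgeR adjusted p 0.39). Vkorc1 and Vkorc1l1, which recycle vitamin K for the carboxylation that Mgp needs, were at 9.38 ± 0.362 and 10.9 ± 0.552 FPKM in the Hnf3a group and 7.73 ± 0.894 and 10.5 ± 0.192 FPKM in the pcDNA group (SD, n = 3 each). Neither was under the threshold (edgeR adjusted p 0.27 and 0.77).

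Of 10 genes for receptors of osteopontin, 8 were tested and 0 passed the threshold in edgeR, DESeq2 or limma, with a median log2 fold change of 0.04. At an unadjusted edgeR p under 0.05 the number was 4, in mixed directions. The integrin gene Itgav was lower in the Hnf3a group (log2 fold change -0.10), and Itgb1, Itgb3 and Itga5 were higher (0.07, 0.29 and 0.23). This cutoff is loose, since Slc20a1, at an unadjusted edgeR p of 0.036, stood at rank 2024 by p among all genes tested. The share of all genes under it is not given here, so nothing is read from the 4. Itgb1, the integrin beta 1 subunit, was at 153 ± 3.92 and 144 ± 3.00 FPKM (SD, n = 3 each; log2 fold change 0.07, edgeR adjusted p 0.27). Cd44, the hyaluronan receptor that also binds osteopontin, was at 29.5 ± 0.820 and 29.2 ± 1.31 FPKM (SD, n = 3 each; log2 fold change 0.01), with a sign that turned in 3 of 17 fits.

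**Figure D4:**
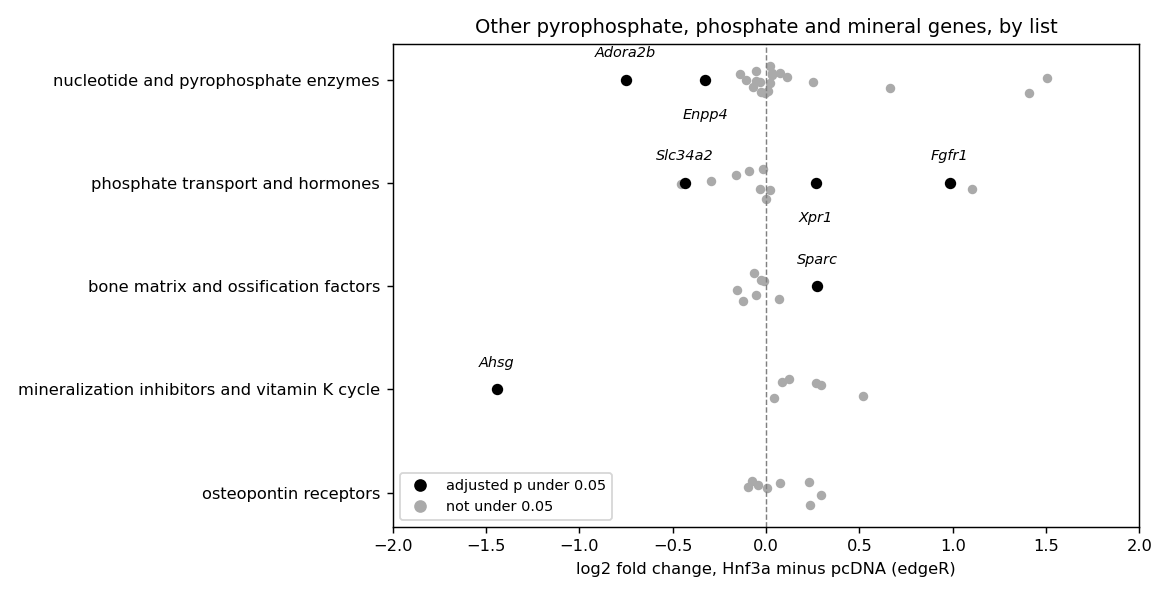
Log2 fold change of Hnf3a minus pcDNA for the tested genes of the 5 lists, 1 row per list, with black points for an adjusted p under 0.05; 2 genes of the bone matrix list, Col1a1 and Col1a2, lie beyond the right edge and are not drawn. Most points lie close to 0, with 3 black points to the right of it and 4 to the left.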

How the data were processed

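Polyadenylated RNA of 6 libraries was read from both ends with strand marking and molecular identifiers. The authors deposited 1 table that gives each gene an FPKM value and an estimated count in every library. Per the submitters' processing notes, cutadapt 1.9, HISAT2 2.0.4, UMI-tools, StringTie 1.3.4d, DESeq2, edgeR and the mm10 build were used. The annotation and the use of strand in counting are not given in the sources used here. GENCODE vM21 held 29514 of the genes, 25765 of them at the same coordinates.

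Groups came from the labels, which give no batch. The deposited estimated counts were whole and were filtered (filterByExpr), scaled by TMM and tested two-sided, 3 against 3, with the quasi-likelihood test of edgeR 4.0.16 in R 4.3.3, with Benjamini-Hochberg adjustment over 17824 genes and a threshold of 0.05. Levels are the deposited FPKM values. No exact permutation test of 3 against 3 can go below 0.1. Alternatives were DESeq2 size factors, total-count scaling, 2 other filters (any count, and 1 FPKM in 3 libraries), the Wald test of DESeq2 1.42.0, limma 3.58.1 (trend) on log2 FPKM plus a pseudocount of 0.1, 1 or 0.01, counts divided by 4, the replicate number as a block, and leaving out each library. A fit without Hnf3a replicates 2 and 3 was added after seeing the data. The lone Hnf3a library is there assumed to vary like the pcDNA libraries.

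The members and the 5 lists were chosen with earlier results of these data known. Genes named were the members, Foxa1, and from each list every gene past the threshold (at most 8) and the 2 genes with the highest mean FPKM. Other genes, such as the cell type markers and Kl, were named for a result beside them. On simulated counts for this comparison, 136 of 200 genes changed by 1 on the log2 scale were recovered among 17824, with 8 false calls. Each simulated gene took its spread from the fitted trend, and no simulated library stood apart from its group. Smaller changes, such as those of Ank, Nt5e and Spp1, were not simulated, so these numbers do not cover them.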

Additional observations from a re-analysis of the deposited data

How the results depend on the processing

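The number of genes past the threshold was 565 of 17824 by the reported fit, 819 by DESeq2, 661 with counts divided by 4, 463 with the replicate block, 236, 231 and 245 by limma with pseudocounts of 0.1, 1 and 0.01, 263 to 643 when each library was left out in turn, and 322 without Hnf3a replicates 2 and 3. Of the members, 4 passed by the reported fit, 4 by DESeq2, 3 with the replicate block, 2 by each limma fit and 2 to 4 when each library was left out. Leaving out pcDNA replicate 1 gave 2 and leaving out pcDNA replicate 2 also gave 2, since Nt5e and Spp1 were lost. Of the genes in the 5 lists, 7 passed by the reported fit, 10 by DESeq2, 8 with counts divided by 4, 7 with the replicate block, 2 by each limma fit, 3 to 10 when each library was left out (3 if Hnf3a replicate 2, pcDNA replicate 1 or pcDNA replicate 2 was the one left out) and 2 without Hnf3a replicates 2 and 3. The causes were not tested. Deviations of libraries with the same replicate number correlated at -0.034, -0.011 and 0.008, so no pairing by number was seen. These correlations run over all genes tested, so they cannot exclude a pairing that touched few genes, and the labels do not say. Under the block, Nt5e (adjusted p 0.074) and Xpr1 (0.062) lost the threshold and Col1a1 (2.27e-06) passed it. Signs turned only for genes with small or poorly measured differences, none of them past the threshold. Leaving out each library gave log2 fold changes of -0.36 to 0.14 for Enpp1, -0.24 to 0.30 for Phospho1, -0.0051 to 0.020 for Entpd5, -0.026 to 0.030 for Slc9a3r1, -0.044 to 0.031 for Bmp4 and -0.030 to 0.036 for Cd44. Phospho1 was at -0.0045 with counts divided by 4 and -0.27 without Hnf3a replicates 2 and 3. Slc9a3r1 was at 0.00071 with DESeq2 size factors, 0.011 with total-count scaling, 0.0029 with every gene that had a count, 0.0049 with the FPKM filter, 0.00066 by DESeq2, 0.0080, 0.0079 and 0.0081 by limma with pseudocounts of 0.1, 1 and 0.01, 0.00045 with counts divided by 4 and 0.0084 without Hnf3a replicates 2 and 3. Bmp4 was at 0.0034 with total-count scaling and at 0.00029, 0.00026 and 0.00029 by limma with pseudocounts of 0.1, 1 and 0.01.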
